A study of Oryza sativa with 16 samples.

Results

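SWEET15 (LOC4329464), OsSWEET1b (LOC4338851) and OsSWEET2b (LOC4326923) are 3 sugar transporter genes of rice, described here across 6 hormone treatments and 2 sets of water controls. The 3 genes were chosen with earlier results of these data known. For these genes, every probe set whose annotated symbol or synonym was one of the names was taken, whatever its values. This gave 4 of 57194 rice probe sets on the array and 3 of the 17905 genes with a probe set of their own. SWEET15 and OsSWEET1b had 1 probe set each and OsSWEET2b had 2. The first probe set of OsSWEET2b is of the plain _at kind and the second of the _x_at kind, in which some probes can also match similar sequences.

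The plants were whole seedlings of Oryza sativa subspecies indica, variety IR64, raised in hydroponic culture for 7 days with 14 h of light and 10 h of darkness. They then stood for 3 h in water or in 1 hormone. At 50 µM were an auxin, indole-3-acetic acid (IAA), and a cytokinin, benzyl aminopurine (BAP). The other hormones were ABA (abscisic acid), the ethylene precursor ACC (1-aminocyclopropane-1-carboxylic acid), SA (salicylic acid) and JA (jasmonic acid), all at 100 µM. Each hormone had 2 biological replicates, and the water controls came as 2 sets of 2, control1 and control2, which made 16 Affymetrix arrays in 8 groups. No label says which control set belongs to which hormone, and the labels name neither the number of seedlings per sample nor the organ sampled within the seedling. In RNA from whole seedlings, fewer cells of a type and less RNA per cell cannot be told apart.

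SWEET proteins are membrane proteins that let sugars cross along their concentration gradient in either direction, unlike sucrose/proton symporters, which need energy. Plants use them to release sucrose beside the phloem, to feed developing seeds and to move sugars in and out of the vacuole, and some bacterial pathogens of rice switch on particular SWEET genes of their host. SWEET15 belongs to the sucrose-carrying clade of the family and acts with SWEET11 in filling the rice grain. OsSWEET1b and OsSWEET2b belong to the clade whose members mostly carry glucose and other hexoses, and the SWEET2 protein of Arabidopsis sits in the vacuole membrane.

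All values are deposited log2 expression values of single arrays. A change is a difference of group means on that scale ± SE, from a limma fit over all 24100 probe sets with a value above 5 in at least 2 of the 16 arrays, and "passed" means a Benjamini-Hochberg adjusted p under 0.05. All 4 probe sets of the 3 genes met that condition. Overlap of single arrays between groups is given as a description, without the share of all tested probe sets in which it held. Array medians ran from 2.94 to 3.09, and r between replicates, across probe sets, was 0.997 to 0.998. In the poly-A spike-in transcripts, the 5' probe sets lay below the 3' probe sets by a log2 difference of -1.56 to -1.22 in control1, IAA and BAP and of -1.17 to -0.63 in the other 5 groups. No clear gap lay between these sets of groups, since their nearest arrays (IAA at -1.22, SA at -1.17) were closer to each other than the replicates of IAA (-1.22 and -1.36) or SA (-0.99 and -1.17). The hybridization spike-ins put ABA (10.46 to 10.47) with control1 (10.13 to 10.50) and not with control2 (11.32 to 12.37). The 2 control sets did not overlap in either measure, and each change is given against all 4 control arrays and, where it matters, against each control set alone.

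Of the 3 genes, SWEET15 had the widest range over the groups. It read 11.88 and 12.17 on the ABA arrays and 8.59 and 7.23 on the IAA arrays. On the control1 arrays it read 4.65 and 5.46, and on the control2 arrays 2.39 and 2.74. The ABA arrays stood above every other array, the IAA arrays came next, and the control sets did not overlap.

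The BAP arrays of SWEET15 read 5.32 and 5.54. The ACC arrays read 4.41 and 2.54, the SA arrays 2.40 and 3.19, and the JA arrays 3.66 and 2.50. BAP overlapped control1, while ACC, SA and JA lay inside the range of the 4 control arrays. Of the 16 arrays, 7 had SWEET15 above 5, namely those of ABA, IAA and BAP and 1 of control1.

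Ordered by group mean, SWEET15 ran from ABA (12.03 ± 0.20, SD, n = 2) through IAA (7.91 ± 0.96), BAP (5.43 ± 0.16), control1 (5.05 ± 0.57), ACC (3.48 ± 1.32), JA (3.08 ± 0.82) and SA (2.79 ± 0.56) to control2 (2.56 ± 0.25). In that order the step from ABA to IAA was 4.12 ± 0.61 (limma adjusted p = 0.000138) and the step from IAA to BAP was 2.48 ± 0.61 (limma adjusted p = 0.0338). The other neighbours did not pass. Control1 exceeded ACC by 1.57 ± 0.61 without overlap of the arrays (limma adjusted p = 0.0818), and below that the arrays of neighbouring groups overlapped.

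OsSWEET1b, in contrast, was measured well above 5 on every array. It read 12.41 and 12.46 on the ABA arrays, 9.83 and 10.20 under IAA and 9.79 and 10.07 under BAP. The control1 arrays read 9.34 and 9.95 and the control2 arrays 9.34 and 9.68. ABA stood apart, and the other groups named here overlapped with the controls.

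Under ACC, OsSWEET1b read 9.09 and 9.46, under SA 9.42 and 9.12, and under JA 9.18 and 8.95. The JA arrays lay below all 4 control arrays (9.18 against 9.34 at the nearest), and those of ACC and SA overlapped with the controls. By mean the order was ABA (12.43 ± 0.04, SD, n = 2), IAA (10.01 ± 0.26), BAP (9.93 ± 0.20), control1 (9.65 ± 0.43), control2 (9.51 ± 0.24), ACC (9.27 ± 0.26), SA (9.27 ± 0.21) and JA (9.06 ± 0.17). The step from ABA to IAA was 2.42 ± 0.22 (limma adjusted p = 3.66e-06), and no other pair of neighbours passed or was free of overlap.

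OsSWEET2b ran the other way under ABA. Its first probe set read 4.89 and 4.20 on the ABA arrays and 5.40 and 5.37 on the SA arrays. It read 8.09 and 7.86 in control1 and 7.03 and 6.75 in control2. ABA and SA therefore lay below every control array, with ABA lower than SA on both arrays.

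The same probe set read 9.37 and 8.15 under IAA, 7.91 and 8.14 under JA, 8.01 and 7.41 under ACC and 7.57 and 7.12 under BAP. IAA lay above every control array (8.15 against 8.09 at the nearest), JA and ACC reached into the range of control1, and BAP lay between the control sets. The order of means was IAA (8.76 ± 0.86, SD, n = 2), JA (8.02 ± 0.17), control1 (7.98 ± 0.16), ACC (7.71 ± 0.43), BAP (7.34 ± 0.32), control2 (6.89 ± 0.19), SA (5.38 ± 0.01) and ABA (4.54 ± 0.49). The step from control2 to SA was 1.51 ± 0.36 (limma adjusted p = 0.0223) and was the 1 step between neighbours that passed. SA exceeded ABA by 0.84 ± 0.36 (limma adjusted p = 0.0892).

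The second probe set of OsSWEET2b read 4.52 and 4.20 under ABA, 5.24 and 5.02 under SA and 8.86 and 7.48 under IAA. It read 7.44 and 7.13 in control1 and 5.96 and 5.76 in control2. Between these controls lay BAP (6.62 and 6.52), ACC (6.42 and 6.46) and JA (6.49 and 6.41). Its ends were those of the first probe set, with IAA highest and ABA and SA lowest, but no step between neighbours passed. SA lay below control2 by 0.73 ± 0.33 (limma adjusted p = 0.202) and above ABA by 0.77 ± 0.33 (limma adjusted p = 0.094).

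**Figure D1:**
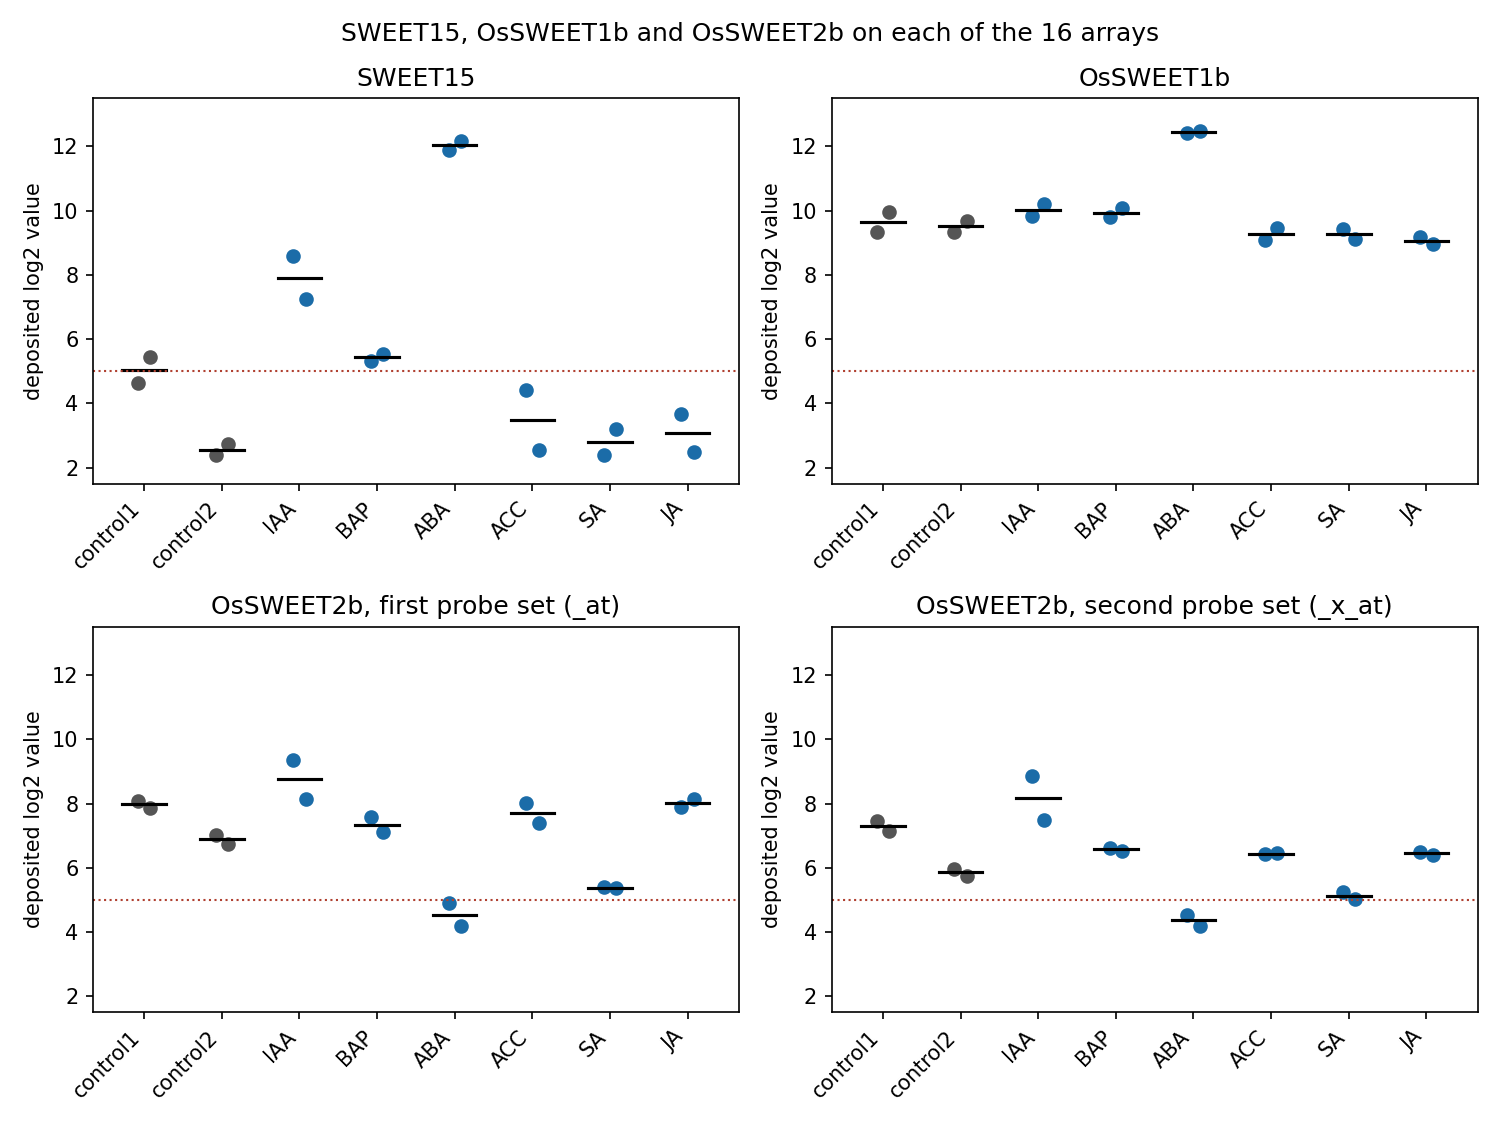
Deposited log2 values (vertical axis) of SWEET15, OsSWEET1b and the 2 probe sets of OsSWEET2b on each of the 16 arrays, by group (horizontal axis). Points are single arrays, black bars are group means (n = 2), grey marks water controls and the dotted line is the log2 value of 5 used in the filter. The ABA arrays are the highest for SWEET15 and OsSWEET1b and the lowest for OsSWEET2b.

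ABA changed all 3 genes. SWEET15 rose by 8.22 ± 0.81 on the log2 scale (limma adjusted p = 6.61e-06, n = 2 ABA and 4 control arrays), by 6.98 against control1 and by 9.47 against control2. Because 3 of its 4 control arrays were below 5, the size depends on the lowest values of the scale, and the ABA mean stood 7.03 above the value of 5. OsSWEET1b rose by 2.86 ± 0.19 (limma adjusted p = 3.13e-07), a 7.24-fold change, with 2.79 against control1 and 2.92 against control2.

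OsSWEET2b fell by 2.89 ± 0.41 on the log2 scale in its first probe set (limma adjusted p = 0.00012), and the values against control1 and control2 were -3.43 and -2.35. Its second probe set fell by 2.21 ± 0.46 on the log2 scale (limma adjusted p = 0.00171), with -2.93 against control1 and -1.499 against control2. In both probe sets the 2 ABA arrays were below 5, so these sizes too depend on the lowest values of the scale. The means of control1 and control2 stood 2.98 and 1.89 above 5 in the first probe set and 2.29 and 0.86 in the second. So 4 of 4 probe sets passed, 2 higher and 2 lower, in a comparison where 48.1% of all tested probe sets passed. Against control1 alone 4 passed (background 52.9%), and against control2 alone 4 passed (background 49.4%).

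A count of 4 of 4 is a small distance from such a background, and the 3 genes were chosen with earlier results of these data known. Of the 3 genes, OsSWEET1b was the 1 that was above 5 in ABA and in all controls, and its change was the 494th highest of 24100 probe sets. The median change over all tested probe sets was -0.07.

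Against the mean of the other 5 hormones ABA also stood apart. The size of this difference uses no control array, but its SE and p come from the fit with the 4 controls pooled. SWEET15 differed by 7.49 ± 0.73 (limma adjusted p = 5.02e-06) and OsSWEET1b by 2.92 ± 0.17 (limma adjusted p = 8.35e-08). The probe sets of OsSWEET2b differed by -2.90 ± 0.37 (limma adjusted p = 4.45e-05) and -2.19 ± 0.41 (limma adjusted p = 0.000812). These were 4 of 4 probe sets beside 49.6% of all tested ones.

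Of the 3 genes, SWEET15 rose under IAA. The rise was 4.10 ± 0.81 on the log2 scale against all 4 control arrays (limma adjusted p = 0.0161), from control values of which 3 of 4 were below 5, and 1 of 4 probe sets passed where the background was 4.14%. It was 2.86 ± 0.61 against control1 alone (limma adjusted p = 0.0303) and 5.35 ± 0.61 against control2 alone (limma adjusted p = 0.000112). The 2 IAA arrays differed by more than any pair of control replicates, and without IAA replicate 1 the change was 3.43 (limma adjusted p = 0.183). In a fit of the control1, IAA and BAP arrays alone, the change was 2.86 ± 0.49 (limma adjusted p = 0.0718).

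OsSWEET2b had higher values under IAA that did not pass against the 4 controls. The changes were 1.33 ± 0.41 (limma adjusted p = 0.0934) and 1.59 ± 0.46 (limma adjusted p = 0.0719) in the first and second probe set. The lower IAA array only just exceeded the highest control array, at 8.15 against 8.09 in the first and 7.48 against 7.44 in the second. Against control1 alone the changes were 0.78 and 0.88 (limma adjusted p = 0.355 and 0.232), and against control2 alone 1.87 and 2.31 (limma adjusted p = 0.00258 and 0.000498). OsSWEET1b differed by 0.43 ± 0.19 (limma adjusted p = 0.218), with overlapping arrays. Of the 4 probe sets, 1 passed against control1 alone (background 2.37%) and 3 against control2 alone (background 31.6%).

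Set against the other 5 hormones, IAA gave higher OsSWEET2b by 2.16 ± 0.37 and 2.38 ± 0.41 (limma adjusted p = 0.00257 and 0.00267) and higher SWEET15 by 2.55 ± 0.73 (limma adjusted p = 0.0253). OsSWEET1b differed by 0.02 ± 0.17 (limma adjusted p = 0.947). Here 3 of 4 probe sets passed, with a background of 25.4%. The mean of the other hormones includes ABA, whose values were the highest or lowest for all 3 genes.

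Direct comparison of IAA with ABA separated all 3 genes. SWEET15 was lower under IAA by 4.12 ± 0.61 and OsSWEET1b by 2.42 ± 0.22, while OsSWEET2b was higher under IAA by 4.22 ± 0.36 and 3.81 ± 0.33 (limma adjusted p from 2.11e-06 to 0.000138). These were 4 of 4 probe sets in a comparison in which 54% of all tested ones passed. SWEET15 was thus above the controls in both treatments, while OsSWEET2b had its highest mean under IAA and its lowest under ABA.

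IAA and BAP were given at the same dose, and their poly-A differences lay with those of control1. SWEET15 was higher under IAA by 2.48 ± 0.61 (limma adjusted p = 0.0338). OsSWEET2b was higher under IAA by 1.42 ± 0.36 and 1.60 ± 0.33 (limma adjusted p = 0.0407 and 0.015). OsSWEET1b differed by 0.08 ± 0.22 (limma adjusted p = 0.914). In this comparison 3 of 4 probe sets passed, with a background of 5.67%.

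OsSWEET2b was lower under SA in its first probe set, by a change that did not pass when either SA array was left out. It fell by 2.05 ± 0.41 on the log2 scale (limma adjusted p = 0.00994), a 4.14-fold change and the 69th lowest of 24100. Against control1 alone it was -2.59 ± 0.36 (limma adjusted p = 0.000443) and against control2 alone -1.51 ± 0.36 (limma adjusted p = 0.0223). Without SA replicate 1 the limma adjusted p was 0.107, without SA replicate 2 it was 0.0673, and in a fit of the SA and control arrays alone it was 0.0676. The second probe set had -1.45 ± 0.46 (limma adjusted p = 0.0687), with -2.16 against control1 (limma adjusted p = 0.000798) and -0.73 against control2 (limma adjusted p = 0.202). Both SA arrays lay below all 4 control arrays in both probe sets. At the nearest these were 5.40 against 6.75 in the first and 5.24 against 5.76 in the second. How often this held among all tested probe sets is not given here.

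SWEET15 under SA differed by -1.01 ± 0.81 from the 4 controls (limma adjusted p = 0.479), by -2.26 from control1 (limma adjusted p = 0.0164) and by 0.23 from control2 (limma adjusted p = 0.873). OsSWEET1b under SA differed by -0.31 ± 0.19 (limma adjusted p = 0.354). In all, 1 of 4 probe sets passed against the 4 controls (background 9.2%), 3 against control1 (background 28.7%) and 1 against control2 (background 9.65%). Against the other 5 hormones 3 passed, all lower (background 5.85%). They were the first probe set of OsSWEET2b (-1.89, limma adjusted p = 0.0102), SWEET15 (-3.59, limma adjusted p = 0.0126) and OsSWEET1b (-0.87, limma adjusted p = 0.0115), the last 2 of which were measured against a mean that holds the high ABA values.

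BAP, ACC and JA gave no probe set of the 3 genes that passed against the 4 controls. For BAP 0 of 4 passed, with 0 at an unadjusted p under 0.05 and a background of 1.29%. For ACC 0 of 4 passed, with 0 at an unadjusted p under 0.05 and a background of 0.614%. For JA 0 of 4 passed, with 1 at an unadjusted p under 0.05 and a background of 5.96%. That 1 was OsSWEET1b, at -0.51 ± 0.19 (limma adjusted p = 0.154). These are limma counts, and a p that misses the threshold does not show equal levels.

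The changes of SWEET15 under these hormones followed the control set used. Under BAP it was 1.62 ± 0.81 against the 4 controls (limma adjusted p = 0.403), 0.38 against control1 (limma adjusted p = 0.949) and 2.87 against control2 (limma adjusted p = 0.00613). Under JA it was -0.73 ± 0.81 against the 4 controls (limma adjusted p = 0.662), -1.97 against control1 (limma adjusted p = 0.035) and 0.52 against control2 (limma adjusted p = 0.686). Under ACC it was -0.33 ± 0.81 (limma adjusted p = 0.885), -1.57 against control1 and 0.92 against control2, neither of which passed.

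Counted over the 3 genes, BAP gave 0 of 4 against control1, with 0 at an unadjusted p under 0.05 (background 1.09%), and 1 of 4 against control2 (background 24%). ACC gave 0 against control1, with 2 at an unadjusted p under 0.05 (background 23.9%), and 0 against control2, with 1 at an unadjusted p under 0.05 (background 0.34%). JA gave 1 against control1 (background 23.9%) and 0 against control2, with 1 at an unadjusted p under 0.05 (background 6.8%). The probe sets of OsSWEET2b differed by -0.09 and 0.00 under BAP, by 0.28 and -0.14 under ACC and by 0.59 and -0.13 under JA, none of which passed.

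Against the other 5 hormones BAP gave 0 of 4, with 0 at an unadjusted p under 0.05 (background 21.6%). ACC gave 2 of 4 (background 11.8%), both lower, SWEET15 at -2.77 (limma adjusted p = 0.0291) and OsSWEET1b at -0.87 (limma adjusted p = 0.00807). JA gave 3 of 4 (background 12.7%), with SWEET15 at -3.25 (limma adjusted p = 0.0119), OsSWEET1b at -1.12 (limma adjusted p = 0.00147) and the first probe set of OsSWEET2b at 1.28 (limma adjusted p = 0.041). In each case ABA is part of the mean, so these values also carry the ABA response of the gene.

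**Figure D2:**
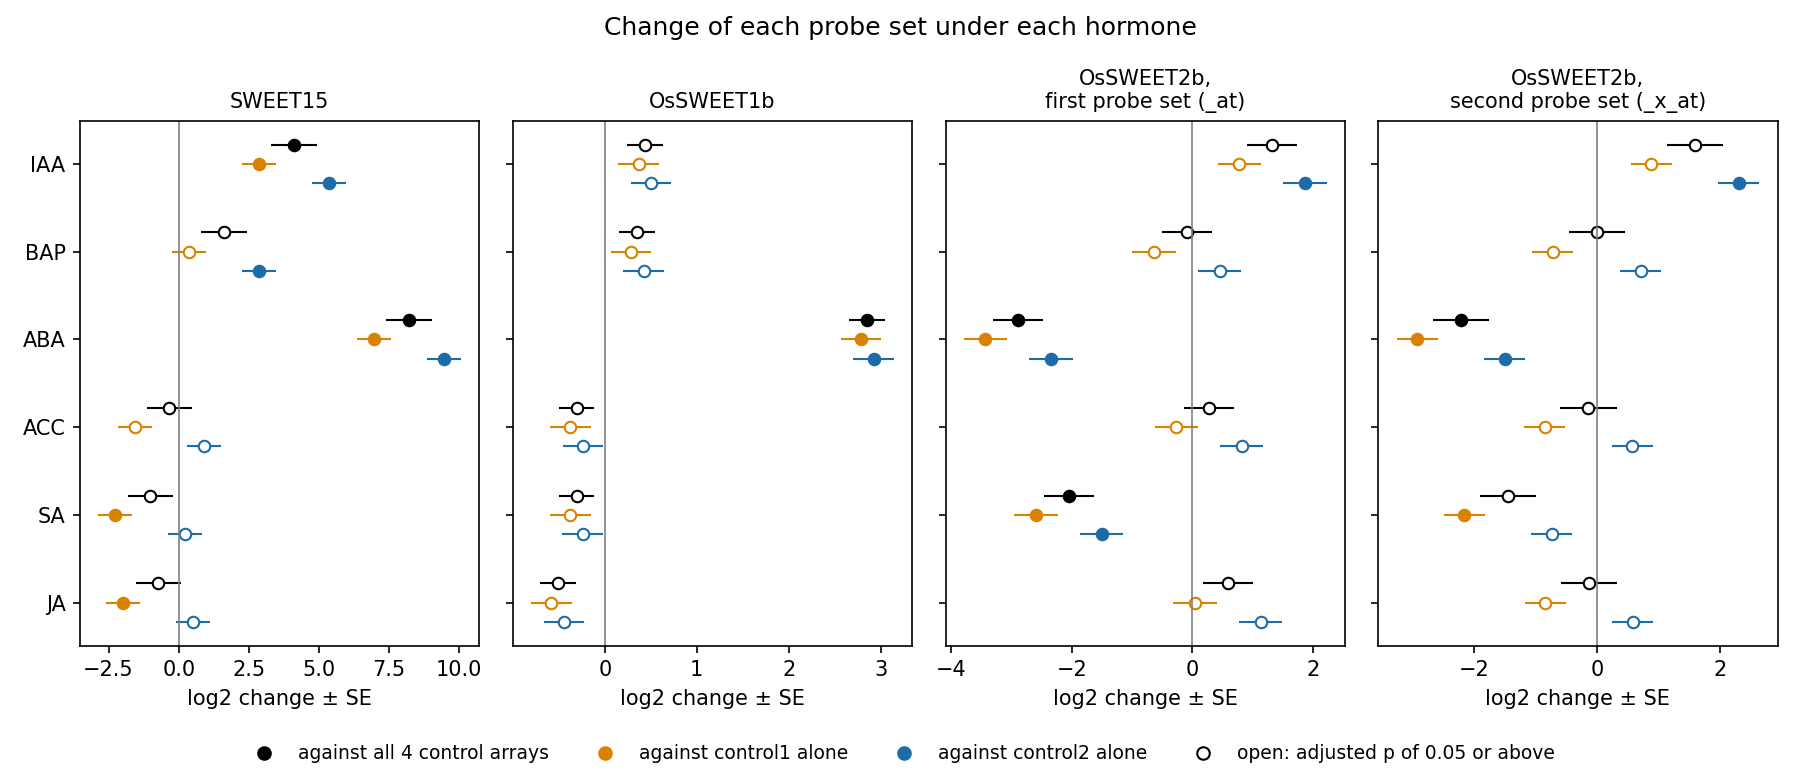
Change of each probe set on the log2 scale ± SE (horizontal axis, scaled separately in each panel) under each hormone (vertical axis), against all 4 control arrays (black), control1 alone (orange) and control2 alone (blue), from limma. Filled points have an adjusted p under 0.05. The ABA points are filled for every probe set and control, while those of SWEET15 under BAP, SA and JA depend on the control set.

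The control sets themselves lay apart in SWEET15 and OsSWEET2b, by differences that rested on single arrays for their calls. From control1 to control2, SWEET15 fell by 2.49 ± 0.61 on the log2 scale (limma adjusted p = 0.014) and the second probe set of OsSWEET2b by 1.43 ± 0.33 (limma adjusted p = 0.0114). The first probe set of OsSWEET2b differed by -1.09 ± 0.36 (limma adjusted p = 0.0511) and OsSWEET1b by -0.14 ± 0.22 (limma adjusted p = 0.715). Thus 2 of 4 probe sets passed, with a background of 21.1%, and 0 or 1 passed when a control array was left out. SWEET15, whose control2 values were below 5, had limma adjusted p = 0.12 without control1 replicate 2, 0.0675 without control2 replicate 1 and 0.0572 without control2 replicate 2. The second probe set of OsSWEET2b had 0.0755 without control1 replicate 1 and 0.0782 without control2 replicate 2. In 5 of 13 alternative fits the first probe set of OsSWEET2b passed. With the replicate number as a block it had limma adjusted p = 0.0195. Both control sets had the same label apart from the set number.

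Outside ABA, SWEET15 values divided in the same way as the poly-A differences. They were 4.65 to 8.59 on the control1, IAA and BAP arrays and 2.39 to 4.41 on the control2, ACC, SA and JA arrays, without overlap. The 3' minus 5' difference of actin probe sets, which reports on RNA integrity, was 0.42 to 1.09 on the first arrays and 1.02 to 1.59 on the others, ABA included. These actin ranges overlapped. The part of the spike-in difference or RNA integrity in the SWEET15 values was not tested. The ABA arrays had poly-A differences of -0.74 and -0.71, beside those of control2 (-0.70 and -0.63), and the highest SWEET15 values of all arrays.

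Over the 8 group means, OsSWEET1b and SWEET15 had a Pearson r of 0.938 and a Spearman rho of 0.833, and r was 0.848 over the 7 groups without ABA. The 2 probe sets of OsSWEET2b had r of 0.949 with each other and 0.911 without ABA. Between OsSWEET2b and OsSWEET1b r was -0.60 and -0.47 for the first and second probe set with ABA, and 0.38 and 0.64 without it. Between OsSWEET2b and SWEET15 it was -0.35 and -0.18 with ABA, and 0.65 and 0.89 without it. These are descriptions over group means that share arrays and normalization. The sign between OsSWEET2b and the other genes rested on the ABA group.

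Among 2637 tested probe sets with a named gene, 68 had an r above 0.9 with SWEET15 over the 8 group means. The highest were OsCIPK11, a gene for a kinase of the calcium-sensor-interacting family (0.986), FOR1 (0.980), the cyclin-dependent kinase gene CDKG-1 (0.975) and the protein phosphatase 2C genes OsPP2C10 (0.975) and OsPP2C47 (0.972). Without ABA these 5 values were 0.953, 0.931, 0.917, 0.955 and 0.966. All 5 changed less under ABA than SWEET15, by 0.68 to 2.42 on the log2 scale.

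For OsSWEET1b, 118 had an r above 0.9, led by SS1 (LOC9269493; 0.994), OsMFT1 (0.986), OsNYC1, whose product is a chlorophyll b reductase (0.984), the clade A phosphatase gene OsPP2C08 (0.984) and OsNAC2, a transcription factor gene (0.984). Under ABA these 5 rose by 3.17, 6.22, 3.18, 4.73 and 3.69 on the log2 scale. Their r without ABA ran from 0.818 to 0.964.

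For the first probe set of OsSWEET2b, 48 of 2636 probe sets passed 0.9, led by COA20 (0.972), ACLA-2, an ATP-citrate lyase gene (0.969), GPB-LR (0.964), the calcium pump gene OsACA10 (0.963) and the apyrase gene OsAPY2 (0.959). For the second probe set it was 96, led by MEX1, named for the chloroplast maltose exporter (0.988), OsACA10 (0.982), PP2A2 (0.973), SPP30-like (0.964) and the auxin efflux carrier gene OsPIN3a (0.956). OsACA10 was the 1 gene in both sets of 5. Under ABA their changes ran from -1.33 to -0.33, smaller than those of OsSWEET2b.

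The reference table names 14 SWEET genes of rice, of which 12 had a probe set, the 3 genes above and 9 others. Of the 9, OsSWEET5 was not tested, at 1.79 to 1.86 on the 16 arrays. OsSWEET12, of the same sucrose-carrying clade as SWEET15, read 6.35 and 7.03 on the ABA arrays and 2.23 to 2.32 on all other arrays. Those 2 arrays alone took it past the filter, so that it had to differ under ABA, and its difference of 4.43 from the controls, which depends on values below 5, is given as a description. Of the other 7 tested genes, OsSWEET16 rose and OsSWEET11 fell under ABA, beside 48.1% of all tested probe sets that passed. With OsSWEET12 included, 3 were higher and 1 lower of 8 against control1 alone (background 52.9%). Against control2 alone 2 were higher and 1 lower of the same 8 (background 49.4%). Both counts hold OsSWEET12, which had to differ under ABA, so neither can be read against its background.

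OsSWEET16, whose relatives in Arabidopsis act in the vacuole membrane, read 8.06 and 7.85 under ABA and 4.45 to 6.02 in the controls. It rose by 2.81 ± 0.38 under ABA (limma adjusted p = 7.66e-05), and, like SWEET15, it was lower in control2 than in control1 (-1.17 ± 0.28, limma adjusted p = 0.0129). OsSWEET11, the grain-filling partner of SWEET15, fell under ABA by 0.62 ± 0.16 on the log2 scale (limma adjusted p = 0.00642).

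OsSWEET2a, the gene whose name pairs with OsSWEET2b, differed by 0.05 ± 0.19 under ABA (limma adjusted p = 0.863), and OsSWEET1a, which pairs with OsSWEET1b, by -0.09 ± 0.15 (limma adjusted p = 0.638). The ABA changes of OsSWEET2b and OsSWEET1b were 2.89 lower and 2.86 higher in the same fit, and the differences between these genes were not tested. OsSWEET14, a sucrose-carrying member that bacterial blight strains switch on, had 2 probe sets. The brighter one differed by 0.51 ± 0.23 under ABA (limma adjusted p = 0.0848) and the other by 0.92 ± 0.32 (limma adjusted p = 0.0312).

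SA moved OsSWEET14 upwards by 2.15 ± 0.23 (limma adjusted p = 0.000201), with 11.77 and 11.17 on the SA arrays and 9.11 to 9.52 on the control arrays. OsSWEET2b went down in the same comparison, as did OsSWEET11, by 0.76 ± 0.16 on the log2 scale (limma adjusted p = 0.0121). That made 1 higher and 1 lower of the 8 other genes under SA (background 9.2%), with a median of -0.19 beside -0.01 over all tested probe sets. Under JA OsSWEET2a rose by 0.76 ± 0.19 (limma adjusted p = 0.0321) and OsSWEET1a fell by 0.94 ± 0.15 on the log2 scale (limma adjusted p = 0.0034), 1 higher and 1 lower of 8 (background 5.96%). Against control2 alone the OsSWEET2a rise did not pass (0.57, limma adjusted p = 0.0912).

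Under BAP OsSWEET11 rose by 0.75 ± 0.16 (limma adjusted p = 0.0445), the 1 of 8 that passed (background 1.29%), and it did not pass against control1 alone (0.66, limma adjusted p = 0.132). Under IAA 0 of the 8 passed by limma (background 4.14%), with 1 at an unadjusted p under 0.05. Under ACC 0 passed (background 0.614%), with 4 at an unadjusted p under 0.05. The counts moved with the control set, as did the backgrounds. Against control2 alone IAA gave 2 higher of 8 (OsSWEET1a at 0.70 and OsSWEET16 at 1.28; background 31.6%) and BAP 3 higher and 1 lower (background 24%). SA gave 2 higher and 1 lower against control2 alone (background 9.65%). Against control1 alone ACC gave 1 higher and 2 lower (background 23.9%), namely OsSWEET2a at 0.73, OsSWEET1a at -0.53 and OsSWEET16 at -1.91, and SA gave 1 higher and 2 lower (background 28.7%). Of the remaining genes, OsSWEET4, a hexose carrier, differed by -0.45 to 0.47 over the 6 hormones and the locus listed as both OsSWEET6a and OsSWEET6b by -0.46 to 0.35, and neither passed under any hormone.

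**Figure D3:**
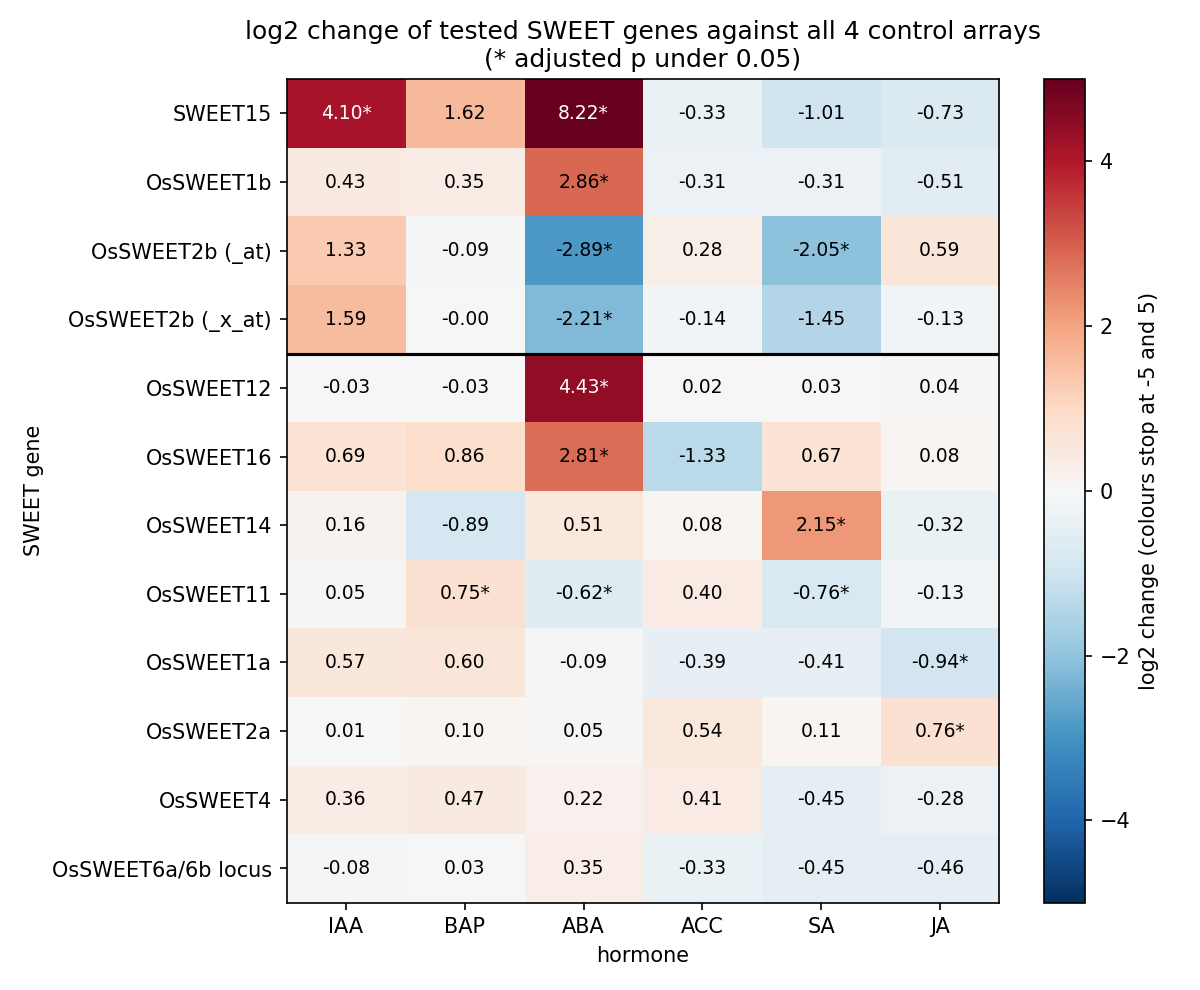
Change on the log2 scale against all 4 control arrays, from limma, of the tested SWEET genes (rows, the 3 genes described here above the line) under the 6 hormones (columns). Colour and printed number give the change, colours stop at -5 and 5, and a star marks an adjusted p under 0.05. SWEET15 under ABA (8.22), OsSWEET12 under ABA (4.43) and SWEET15 under IAA (4.10) are the 3 highest values, all measured from control values mostly below 5, and OsSWEET12 met the filter through its ABA arrays alone.

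Genes of sugar transport and metabolism other than SWEET genes also moved under ABA, in both directions. Of 25 tested genes in 6 lists, 5 were higher and 11 lower, beside the background of 48.1%, counted on the probe set with the highest mean of each gene. Against control1 alone 4 were higher and 10 lower (background 52.9%), and against control2 alone 5 were higher and 9 lower (background 49.4%). Sucrose/proton symporter genes gave 2 higher and 0 lower of 3, OsSUT2 at 1.39 ± 0.26 (limma adjusted p = 0.000885) and OsSUT4 at 0.48 ± 0.16 (limma adjusted p = 0.0229). OsSUT2 is uncertain, because its other probe set went the opposite way, from a control mean of 6.88 to 5.79 (-1.09 ± 0.24, limma adjusted p = 0.00246). The other probe sets of OsSUS1 and of the gene listed as HXK2 and HXK3 fell under ABA like the counted ones. OsSUT4 did not pass against control1 alone (0.23, limma adjusted p = 0.0837). The 1 tested monosaccharide transporter gene, OsMST3, fell by 1.28 ± 0.23 on the log2 scale (limma adjusted p = 0.000591).

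Sucrose synthase genes, whose enzymes split sucrose reversibly, gave 1 higher and 2 lower of 5. OsSUS4 rose by 3.49 ± 0.24 (limma adjusted p = 3.72e-07), from a control mean of 11.08 to 14.57, while OsSUS1 fell by 1.65 ± 0.16 on the log2 scale (limma adjusted p = 6.19e-06) and OsSUS2 by 0.47 ± 0.09 (limma adjusted p = 0.00138). Of the 4 sucrose phosphate synthase genes, which act in sucrose synthesis, SPS8 rose by 1.36 ± 0.12 (limma adjusted p = 3.01e-06) and OsSPS2 fell by 0.93 ± 0.12 on the log2 scale (limma adjusted p = 6.77e-05).

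Invertase genes, whose enzymes hydrolyse sucrose, gave 1 higher and 3 lower of 6, and 1 higher and 2 lower against control1 alone. The cell wall invertase genes OsCIN2 and OsCIN1 fell by 3.23 ± 0.34 and 1.99 ± 0.20 on the log2 scale (limma adjusted p = 1.12e-05 and 8.88e-06), the former to values of 4.33 and 4.19, below 5, on which its size depends. OsCIN4 fell by 0.66 ± 0.23 on the log2 scale (limma adjusted p = 0.031), whereas the neutral invertase gene OsNIN1 rose by 2.03 ± 0.14 (limma adjusted p = 4.31e-07). Of 6 hexokinase genes 4 were lower and 0 higher, with HXK5 at -1.09 ± 0.15 (limma adjusted p = 7.37e-05). Against control2 alone 2 of the 6 were lower. The ABA medians were 0.48 for symporters, 0.12 for sucrose synthases, 0.00 for sucrose phosphate synthases, -0.40 for invertases and -0.58 for hexokinases, beside -0.07 over all tested probe sets.

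The hormones other than ABA gave fewer calls among these 25 genes, as they did among all tested probe sets. IAA, ACC and JA gave 0 by limma (backgrounds 4.14%, 0.614% and 5.96%), with 5, 6 and 2 at an unadjusted p under 0.05. Against control2 alone IAA gave 8 higher and 2 lower (background 31.6%) and BAP 6 higher and 2 lower (background 24%). Against control1 alone ACC gave 3 higher and 5 lower (background 23.9%) and SA 3 higher and 7 lower (background 28.7%). Against all 4 controls BAP gave 1 (background 1.29%), OsCIN1 at 1.74 ± 0.20 (limma adjusted p = 0.00154). SA, under which OsSWEET2b fell, lowered OsSUS1 (-0.62, limma adjusted p = 0.0345), OsSPS2 (-0.75, limma adjusted p = 0.00309), OsCIN1 (-0.77, limma adjusted p = 0.0367) and the hexokinase gene listed as HXK2 and HXK6 (-0.50, limma adjusted p = 0.00801). It raised OsNIN1 (0.66, limma adjusted p = 0.0145) and the gene listed as HXK6 and HXK7 (0.71, limma adjusted p = 0.0359). These were 2 higher and 4 lower of 25, with a background of 9.2%.

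**Figure D4:**
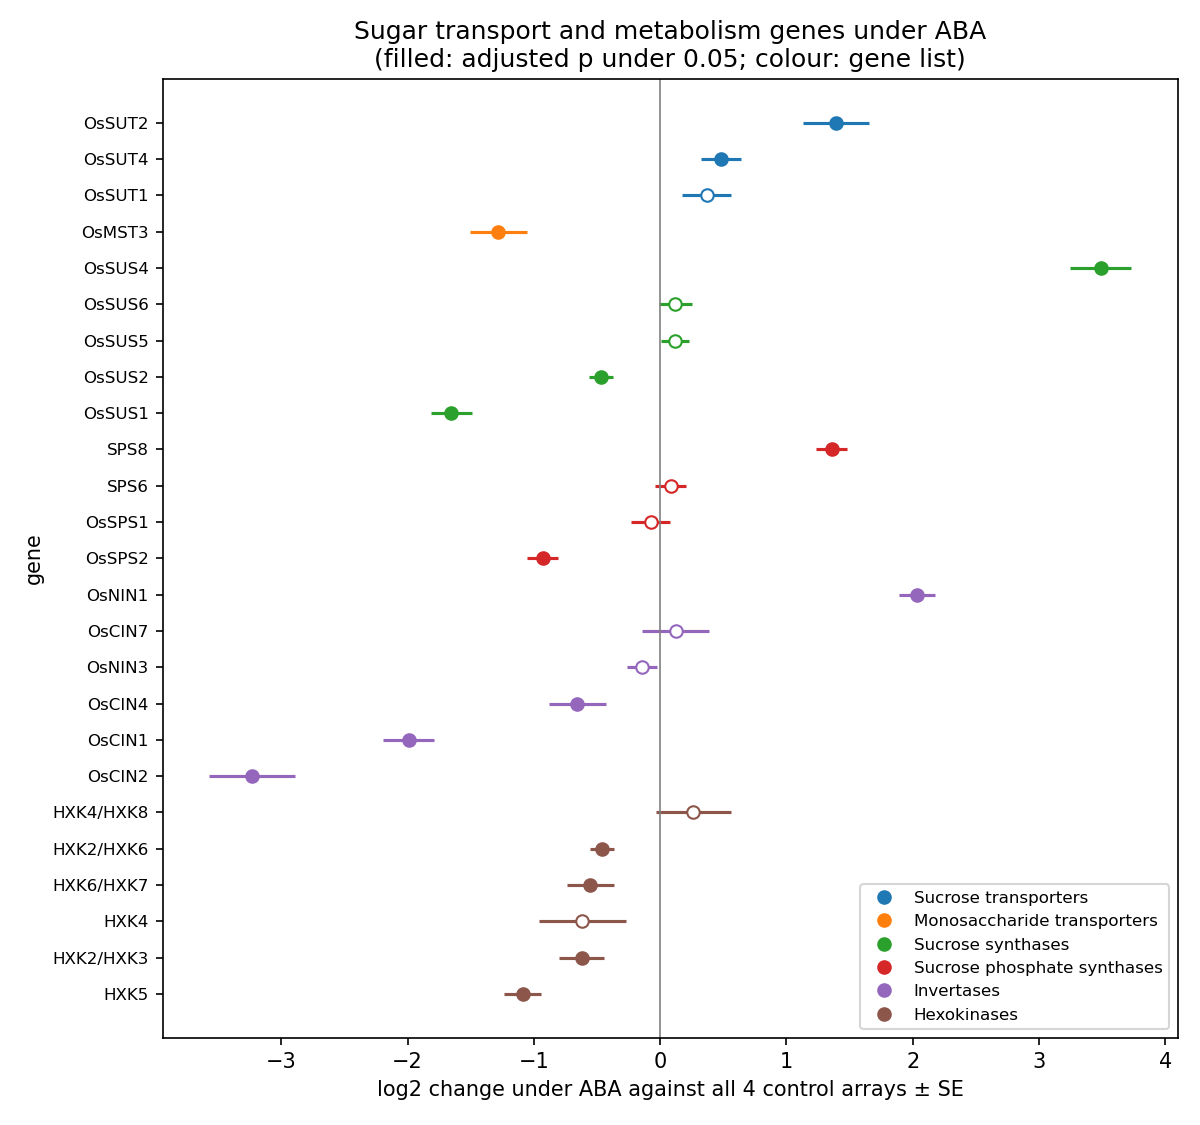
Change under ABA against all 4 control arrays ± SE on the log2 scale (horizontal axis, limma) of the tested genes of 6 lists of sugar transport and metabolism (vertical axis, colours mark the list). Filled points have an adjusted p under 0.05. OsSUS4 (3.49) is the highest and OsCIN2 (-3.23), whose ABA arrays were below 5, the lowest, and the other probe set of OsSUT2, not drawn, fell.

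Markers of seedling organs were measured on the same arrays. All 3 tested shoot marker genes (CAB2R, OsrbcS and RCA) and all 5 root marker genes (Lsi1, Lsi2, OsHMA5, OsIRT1 and PHO1-2) were above 5 on at least 1 array of every group, so that RNA of both organs was present. Of the 4 seed marker genes, GLUA1 and RAG2 were below 5 on every array. The brighter probe set of GLUA2 read 8.38 to 9.63 over the 16 arrays, and Osem read 2.31 to 14.42. Beside the ABA changes of SWEET15, OsSWEET1b and OsSWEET2b, 5 of 5 root markers fell, from -0.59 for OsHMA5 to -6.79 for Lsi2. Of the shoot markers 2 of 3 fell, RCA by 1.17 and OsrbcS by 0.60 on the log2 scale in its brightest probe set. Another OsrbcS probe set read 13.19 and 13.08 under ABA, within the control range of 12.82 to 13.77. A further OsrbcS probe set read 9.62 and 9.61, below the controls (10.00 to 10.55). Of all tested probe sets, 26.9% passed as lower under ABA. The summed level of the root markers was 12.14 to 12.43 under ABA against 14.14 to 14.67 in the controls, and that of the shoot markers 16.26 to 16.28 against 16.62 to 16.93. Under SA, where OsSWEET2b fell, 2 of 5 root markers fell (4.67% of all tested probe sets were lower) and their summed level was 12.72 to 13.85. Under BAP, where no probe set of the 3 genes passed, 3 of 5 root markers fell (0.469% of all tested probe sets were lower) and their summed level was 12.89 to 12.91. Under IAA, where SWEET15 rose, 0 of 5 passed by limma (background 4.14%), with 1 at an unadjusted p under 0.05, and the summed level was 13.64 to 13.83.

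The seed and embryo marker gene Osem had a mean of 2.60 in control1, 11.92 in control2 and 14.38 under ABA, opposite to SWEET15 between the control sets and in the same direction under ABA. The summed level of the 4 seed markers was 8.87 to 8.89 in control1, 12.02 to 12.29 in control2 and 14.40 to 14.47 under ABA, with 9.05 to 9.44 under IAA, 8.47 to 8.88 under BAP and 11.56 to 12.73 under ACC, SA and JA. These sums rested almost wholly on GLUA2 in control1, IAA and BAP and mostly on Osem in the other groups, so they do not show a trend of all 4 genes. The part of organ proportions in the values of the 3 SWEET genes was not tested.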

How the data were processed

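Total RNA (5 µg per sample) of 16 seedling samples was labelled for Affymetrix rice arrays, per the labels' protocols. Per the submitters' processing notes, the authors made the deposited values with GCRMA, which corrects background, normalizes between arrays and summarises probes. No version of it is given in the sources used here. No log base is stated, the range of the deposited numbers was read as log2, and GCRMA can stretch or compress values near the bottom of the scale.

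Of 57381 probe sets, 123 Affymetrix controls and 64 reporters were left out, and 22436 of the other 57194 had 1 gene in the platform annotation, 95 several and 34663 none given there. Probe sets with a log2 value above 5 in at least 2 of 16 arrays (24100) were fitted with limma 3.58.1 in R 4.3.3 (lmFit, eBayes with an intensity trend) in 7 groups with the 4 controls pooled (9 residual degrees of freedom). Contrasts set each hormone against water and against the average of the other 5. A fit of 8 groups (8 residual degrees of freedom) gave each control set alone, the control sets against each other and pairs of groups. Tests were two-sided with Benjamini-Hochberg adjustment over all 24100 probe sets, per comparison, at 0.05. In the fit of 8 groups the p-values rest on the spread between the 2 replicates per group. In the fit of 7 groups the spread also holds the difference between control1 and control2, because the 4 control arrays form 1 group. The SE of SWEET15 against water was 0.81 there and 0.61 against either control set alone. The number of arrays limits the precision.

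Genes of the lists were matched by symbol or synonym, with 1 probe set per gene, that of the highest mean, for counts. Named were all probe sets of the 3 genes, all other SWEET genes on the array, at most 4 called genes per list and hormone, and the 5 named genes most like each probe set by Pearson correlation of the 8 group means. The 3 genes and the lists were chosen with earlier results of these data known. Alternatives were quantile normalization, median centring, no filter, a floor of 7 in place of 5, array weights, other variance priors, each control set or both, fits of the treated and control arrays only, replicate number as block, and each array left out. A fit of the hormone with the groups on its side of the poly-A spike-in difference (control1, IAA and BAP, or the other 5) was added after the data were seen. The procedure was tested on simulated data.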

Additional observations from a re-analysis of the deposited data

How the results depend on the processing

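In ABA against water and against the other 5 hormones, all 4 probe sets passed under every alternative run. For the other comparisons the count of probe sets that passed, of 4, depended on the controls. IAA against water gave 1 with all controls, 3 against control2 alone and against the mean of both sets, 0 with only the treated and control arrays and 0 in the groups on its side of the poly-A difference (added after the data were seen), and 0 to 2 when 1 array was left out. BAP gave 0, and 1 against control2 alone. SA gave 1, with 3 under array weights, 3 against control1 alone, 2 against the mean of both sets, 2 in the groups on its side of the poly-A difference, 0 with only the treated and control arrays, and 0 to 2 when 1 array was left out. JA gave 0, and 1 against control1 alone. Against the other 5 hormones, leaving out 1 array gave 0 to 3 for IAA, 0 to 2 for ACC, 0 to 3 for SA and 0 to 3 for JA, and ACC gave 1 with no filter. Control2 against control1 gave 2, and fewer when 1 array was left out. The first probe set of OsSWEET2b, not among these 2, passed in 5 of 13 alternatives (lowest limma adjusted p = 0.0188).

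Signs turned only in changes whose main value did not pass. SWEET15 turned to 0.92 under ACC, 0.23 under SA and 0.52 under JA, each against control2 alone and in the groups on the hormone's side of the poly-A difference, and under ACC it ran from -1.26 to 0.61 when 1 array was left out. The first probe set of OsSWEET2b turned to 0.45 under BAP against control2 alone (-0.32 to 0.13 with 1 array left out) and under ACC to -0.18 with array weights and -0.27 against control1 alone (-0.024 to 0.58 with 1 array left out). The second turned under BAP to 0.029 with quantile normalization, 0.040 with median centring and 0.71 against control2 alone (-0.27 to 0.29 with 1 array left out). It also turned to 0.58 under ACC (-0.41 to 0.15) and to 0.59 under JA (-0.40 to 0.16), both against control2 alone and in the groups on the hormone's side of the poly-A difference, with the range when 1 array was left out in brackets. OsSWEET1b between the control sets ran from -0.44 to 0.17 when 1 array was left out. The cause was not tested.

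The IAA rise of SWEET15 had limma adjusted p = 0.183 without IAA replicate 1, and 0.164 with only the treated and control arrays. The SA fall of OsSWEET2b in its first probe set had limma adjusted p = 0.107 without SA replicate 1 and 0.0673 without SA replicate 2. Over 28 pairs of groups the correlation of same-numbered deviations ran from -0.19 to 0.45 and was above 0.1 in 10, so some same-numbered arrays deviated together but not all, and the numbers were not taken as pairs. With the replicate block, the first probe set of OsSWEET2b passed between the control sets (-1.09, limma adjusted p = 0.0195), so that 3 probe sets passed there in place of 2, and no other count changed. Depth does not apply to arrays, and the 2 arrays per group limit the precision.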
